A study of Mus musculus with 20 samples.

Results

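Inhibition in the brain is carried by GABA and glycine, and 28 genes of this system were followed in the preoptic area (POA) of male mice. The list was put together from gene symbols by function and holds 28 of the 25239 genes counted. It covers GABA-A, GABA-B and glycine receptor subunits, the enzymes and carrier that make, pack and break down GABA, transporters of the plasma membrane, chloride transporters, and a scaffold and an adhesion protein of inhibitory synapses. The samples came from 20 mice in 4 groups of 5, given by genotype (control or dnFGFR) and housing (SS or OS). dnFGFR mice carry a transgene for a truncated FGF receptor 1 without its kinase domain, which a rat GnRH promoter directs to GnRH neurons, so the transgene itself acts in very few cells of the tissue. Control mice lacked this manipulation and descended from matings of heterozygous dnFGFR siblings, which the study's methods give as matching the background. How far the background matched at single loci was not tested. All were males, paired at PND20 with a same-sex (SS) or an opposite-sex (OS) partner and sacrificed at PND320, and OS-housed mice bred and raised pups.

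GABA is made from glutamate by the decarboxylases GAD67 (Gad1) and GAD65 (Gad2), and the vesicular carrier VGAT (Slc32a1) fills synaptic vesicles with GABA or glycine. GABA-A and glycine receptors are chloride channels built from mixed subunits, whereas GABA-B receptors act through G proteins. Many neurons of the POA are GABAergic, and GABA reaches GnRH neurons largely through GABA-A receptors. In whole tissue, fewer cells of a type and less RNA per cell cannot be told apart.

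The counts of a mouse summed to between 32353578 and 39871353. Expression is given as read counts scaled to library size (CPM) after TMM normalization, and as CPM per kb of exon where genes are compared with each other. On the first principal component, dnFGFR OS replicate 5 lay at 69.3 and the other 19 mice between -29.8 and 15.97. The sacrifice dates of the genotypes hardly overlapped, and the effects of genotype and date cannot be told apart. Housing was also partly tied to date. Dates shared by both housings held 2 SS- and 5 OS-housed control mice, and 2 SS- and 4 OS-housed dnFGFR mice. None of 7 markers of preoptic and hypothalamic neurons was at 0 in any group, which at this depth is only a weak check of the tissue label. Their summed CPM ran from 42.8 to 81.2 per mouse. Summed over 7 markers of striatal projection neurons, which are GABAergic, it ran from 2046 to 4084.

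The promoters of the 3 members that the results turn on most are shown first, as the 250 bases before the transcription start in RefSeq (GRCm38.p6), 5′ to 3′. Gabra2 carries the change between genotypes, and Nlgn2 and Slc32a1 the lowest fold changes with OS housing among dnFGFR mice apart from the weakly expressed Glra1. Capitals mark the GC box, GGGCGG, on either strand. The windows are chr5:71095850-71096099 (minus strand) for Gabra2, chr11:69837785-69838034 (minus strand) for Nlgn2 and chr2:158610508-158610757 (plus strand) for Slc32a1. The last lies inside the widest RefSeq span of its gene, before a start within that span.
Gabra2: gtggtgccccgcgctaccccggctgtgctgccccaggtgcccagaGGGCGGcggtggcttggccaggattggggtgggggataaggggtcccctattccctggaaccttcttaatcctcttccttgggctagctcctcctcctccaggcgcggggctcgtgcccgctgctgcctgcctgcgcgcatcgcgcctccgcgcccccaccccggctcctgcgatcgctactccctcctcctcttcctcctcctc
Nlgn2: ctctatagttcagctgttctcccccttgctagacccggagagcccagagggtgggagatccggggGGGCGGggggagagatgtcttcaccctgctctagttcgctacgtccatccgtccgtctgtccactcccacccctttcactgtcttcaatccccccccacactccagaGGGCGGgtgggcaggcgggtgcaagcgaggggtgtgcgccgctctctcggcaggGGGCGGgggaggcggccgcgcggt
Slc32a1: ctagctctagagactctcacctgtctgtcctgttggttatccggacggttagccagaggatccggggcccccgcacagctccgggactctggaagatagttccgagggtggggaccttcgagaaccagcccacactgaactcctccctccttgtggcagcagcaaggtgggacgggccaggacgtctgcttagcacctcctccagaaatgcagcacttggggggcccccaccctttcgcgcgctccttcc
The GC box occurred in 1 place before Gabra2, in 3 before Nlgn2 and in none before Slc32a1, and 32.7% of 32851 windows of this length held it. Neither the cAMP response element TGACGTCA (in 1.55% of windows) nor the TATA box letters TATAAA (in 12.4%) was found on either strand in these 3. All were rich in GC, with 70.0%, 67.6% and 62.4%, where the median window had 52.4%. They held 18, 18 and 12 CpG dinucleotides, against a median of 6. Such matches describe letters only and say nothing of binding. Of the 28 members, 24 had a window in the table.

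Per length of transcript, the genes of GABA synthesis and packing stood highest. Gad2 had 121 ± 15.4 CPM per kb (SD, n = 20 mice), Slc32a1 116 ± 14.7 and Gad1 97.5 ± 8.11. Gad2 and Slc32a1 differed by less than their SD, as did Gad1 and the next gene. This was Gabbr1, the subunit of the GABA-B receptor that binds GABA, with 94.99 ± 4.36 CPM per kb. Slc12a5, the chloride exporter KCC2 of mature neurons, had 84.8 ± 4.97. Among GABA-A receptor subunits of the list, Gabrb2 was the highest with 52.04 ± 7.89 CPM per kb and Gabre the lowest with 1.06 ± 0.282. Between them lay Gabrd, a subunit of extrasynaptic receptors, with 30.7 ± 3.25, and Gabra3, Gabra4, Gabra2 and Gabra5, with 28.1 ± 2.76, 23.6 ± 2.06, 22.3 ± 7.11 and 14.7 ± 1.66. Glycine receptor transcripts were mainly Glrb, the beta subunit that anchors the receptor to gephyrin, with 46.6 ± 2.97 CPM per kb. The alpha subunits Glra2, Glra3 and Glra1 had 9.03 ± 1.18, 1.62 ± 0.295 and 0.513 ± 0.238. Slc6a5, the glycine transporter GlyT2 of glycinergic nerve endings, had 0 counts in 14 of 20 mice and at most 7 in any mouse. It did not pass the filter on low counts, so 27 of the 28 members were tested. The other members of the GABA-A class were lower, from Gabrb1 with 11.4 ± 1.77 through Gabrg1 with 7.42 ± 0.955 and Gabrg3 with 5.44 ± 0.856 to Gabrq with 3.79 ± 0.984. Nlgn2 had 55.04 ± 6.51 CPM per kb, Gabbr2 27.7 ± 2.87, Gphn 20.6 ± 1.55, Slc6a9 15.3 ± 1.53 and Slc12a2 12.1 ± 1.96. The within-group coefficient of variation was lowest for Gabbr1 (4.04%) and Slc12a5 (4.06%), and among members with a mean above 100 CPM in every group it was highest for Gabra2 (17.6%).

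**Figure D1:**
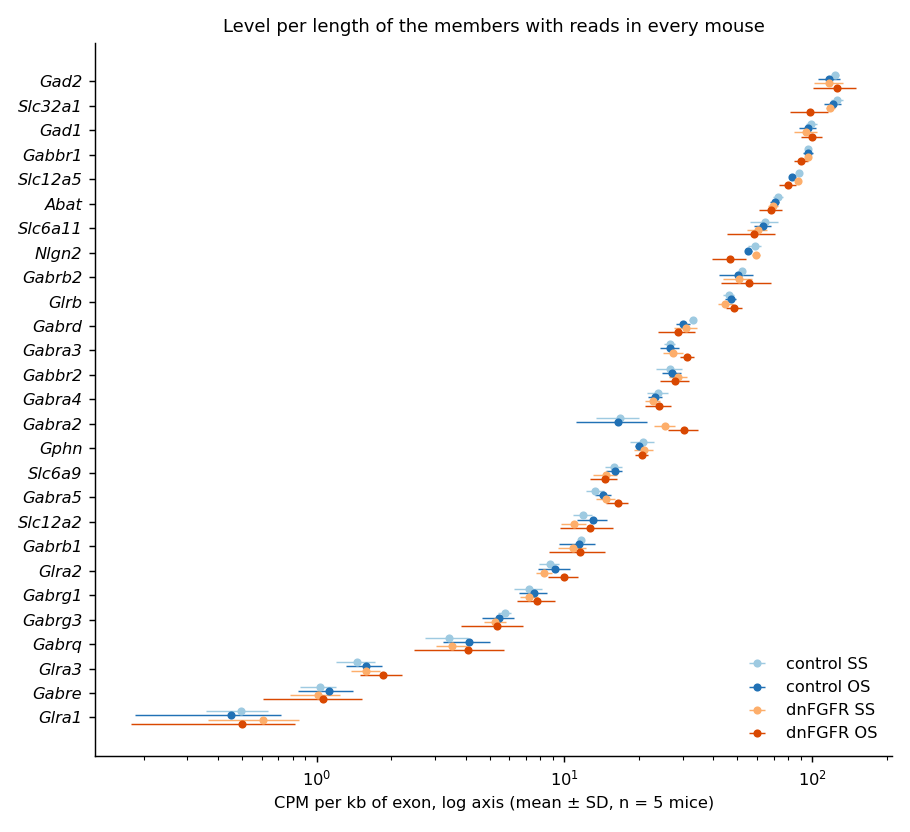
Level per length of 27 members, in CPM per kb of exon on a log axis, with the mean and SD of the 5 mice of each group in its own color. Slc6a5, at 0 counts in 14 mice, is not drawn. Levels span from Glra1 to Gad2, and Gabra2 is the member whose dnFGFR groups stand farthest to the right of its control groups.

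Between genotypes, 1 member of the list changed. Gabra2, on chromosome 5 (70958392 to 71095849, GRCm38), encodes the alpha2 subunit of the GABA-A receptor, which is typical of inhibitory synapses on the cell body and axon initial segment. Among SS-housed mice, the 5 control mice had 146, 98.1, 102, 146 and 146 CPM and the 5 dnFGFR mice 214, 196, 166, 208 and 191 CPM. Every dnFGFR mouse thus lay above every control mouse. Gabra2 was upregulated 1.53-fold in dnFGFR mice, or by 0.61 on the log2 scale (SE 0.114, adjusted p = 0.0617 in edgeR). It was 1 of 27 members called, where 0.2% of all 16992 genes were called, and 1 of 27 with groups that did not overlap, where 1.57% of all genes had such groups. An unadjusted p below 0.05 was also found for Gabra2 alone (8.63% of all genes). The call was lost without control SS replicate 2 or 3 or dnFGFR SS replicate 1 or 2 (adjusted p from 0.113 to 0.183, edgeR), with an increase at each of these 4 removals of 0.53 to 0.61 on the log2 scale. With all 4 groups in 1 edgeR fit the adjusted p was 0.263.

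OS-housed mice showed the same order. Control mice had 94.8, 105, 185, 94.5 and 147 CPM and dnFGFR mice 248, 198, 217, 219 and 280.4 CPM, again without overlap. The log2 fold change was 0.89 (SE 0.180), but its adjusted p of 0.198 in edgeR did not pass 0.1. None of the 27 members was called in this comparison, where 0.0531% of all 16941 genes were, while Gabra2 was the only member without overlap (1.55% of all genes). It was called without control OS replicate 3 (adjusted p = 0.0342, edgeR), the control mouse with 185 CPM, and not without dnFGFR OS replicate 5 (log2 fold change 0.81, adjusted p = 0.281). DESeq2 (adjusted p = 0.000529, 0.362% of genes called), limma voom (0.0240, 0.159%), the offset for GC content and length in edgeR (0.0883, 0.127%) and all 4 groups in 1 edgeR fit (0.0197, 0.258%) also called it. The difference between the genotype effects of both housings was 0.28 (SE 0.229, adjusted p = 0.963, edgeR), and was not shown to differ from 0.

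The 10 control mice did not spread evenly around their mean. Of these, 5 values lay from 94.5 to 105 CPM, 4 from 146 to 147 CPM and 1 at 185 CPM. Each step held mice of both housing conditions except the last. The 10 dnFGFR mice ran from 166 to 280.4 CPM.

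**Figure D2:**
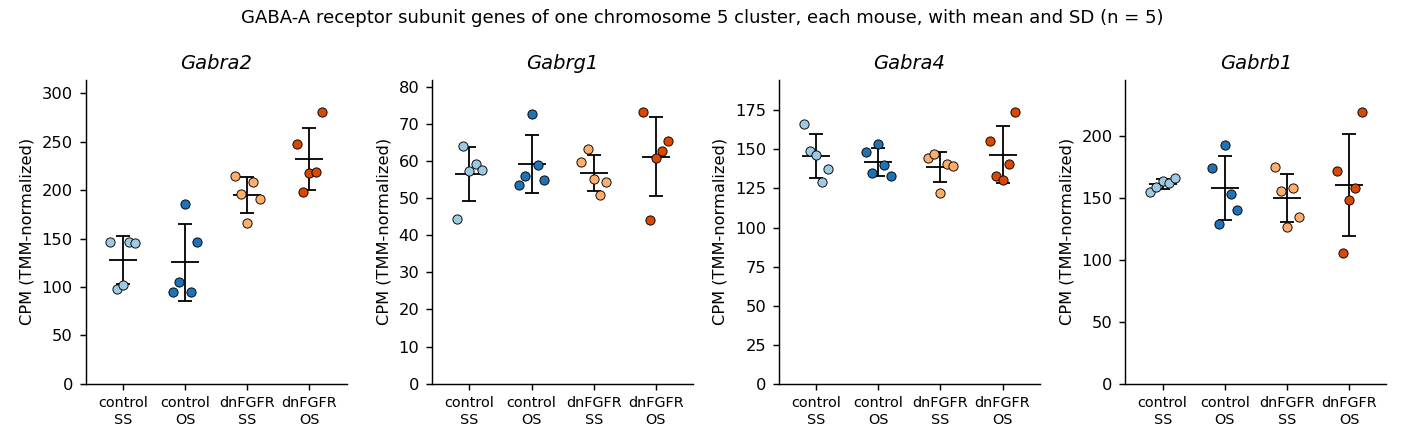
CPM of Gabra2 and of 3 GABA-A receptor subunit genes that lie beside it on chromosome 5, with 1 point per mouse and the mean and SD of 5 mice in each of the 4 groups. Gabra2 is separated by genotype in both housing conditions, with control mice at most at 146 and 185 CPM and dnFGFR mice at least at 166 and 198 CPM under SS and OS housing, whereas the groups of Gabrg1, Gabra4 and Gabrb1 overlap.

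Gabra2 lies in a cluster with Gabrg1 (70751047 to 70842617), Gabra4 (71569734 to 71658308) and Gabrb1 (71657921 to 72149572), which encode further subunits of the same receptor class. None of these was called. In SS-housed mice, the log2 fold changes between genotypes were 0.0046 for Gabrg1, -0.069 for Gabra4 and -0.10 for Gabrb1. With OS housing they were 0.049, 0.048 and 0.025, with adjusted p of at least 0.754 in each of these 6 tests (edgeR). Gabra4 and Gabrb1 overlap at their ends, so reads there can be shared. Within 5 Mb on either side, 0 of 44 further tested genes were called in SS-housed and 0 of 46 in OS-housed mice (edgeR). An unadjusted p below 0.05 was found in 7 and 4 of them (8.63% and 7.02% of all genes). DESeq2 called 3 and 1 of them (1.03% and 0.362% of all genes). By limma voom 0 and 1 were called (0.159% of all genes under OS housing). On the whole chromosome, 9 of 1027 tested genes were called between genotypes under SS housing (34 of 16903 genes with a position in all) and 2 of 1028 under OS housing (9 of 16853).

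Among the 4 alpha subunits of the list, the part of Gabra2 differed between genotypes without overlap. In CPM per kb, it made up 20.7% ± 3.62 of their sum in control SS and 19.98% ± 4.18 in control OS mice (SD, n = 5 each). In dnFGFR mice it was 28.2% ± 0.610 with SS and 29.7% ± 2.34 with OS housing. The lowest dnFGFR mouse, with 26.7%, lay above the highest control mouse, with 25.4%. Gabra4 went from 29.7% ± 2.27 in control SS to 25.2% ± 1.18 in dnFGFR SS mice and from 29.0% ± 2.42 to 23.5% ± 1.56 in OS-housed mice. These are shares of 1 sum, so a higher share of Gabra2 lowers the others. The summed level of the 4 subunits was 80.7 ± 4.46 CPM per kb in control SS, 80.8 ± 9.05 in control OS, 90.6 ± 7.23 in dnFGFR SS and 102.3 ± 6.13 in dnFGFR OS mice.

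A further 4 members had an unadjusted p below 0.05 between genotypes in OS-housed mice, making 5 of 27, where 7.02% of all genes had one. Gabra3, which encodes the alpha3 subunit, had 104, 95.4, 119.7, 99.8 and 106 CPM in control OS and 113, 121, 132, 119 and 129.7 CPM in dnFGFR OS mice. Its log2 fold change was 0.23 (SE 0.0760, adjusted p = 0.643, edgeR). The groups overlapped through 1 control mouse with 119.7 CPM. For Gabra5, the alpha5 subunit found mostly outside synapses, control OS mice had 43.5, 37.5, 46.4, 42.6 and 43.4 CPM and dnFGFR OS mice 50.6, 55.7, 46.9, 48.8 and 41.8 CPM. This was 0.19 on the log2 scale (SE 0.0857, adjusted p = 0.699 in edgeR), and Gabra5 overlaps other counted genes. In SS-housed mice, Gabra3 had 101, 108, 105, 98.1 and 112 CPM in control and 0.042 as its log2 fold change, and Gabra5 43.9, 37.6, 41.2, 35.1 and 40.8 CPM in control and 45.4, 42.4, 39.1, 49.3 and 42.99 CPM in dnFGFR mice, with 0.14. Slc32a1 and Nlgn2 had log2 fold changes of -0.30 (SE 0.112) and -0.25 (SE 0.0942), each with an adjusted p of 0.655 in edgeR. With the offset for GC content and length they were -0.13 and -0.11. No alternative called any of these 4 in this comparison.

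**Figure D3:**
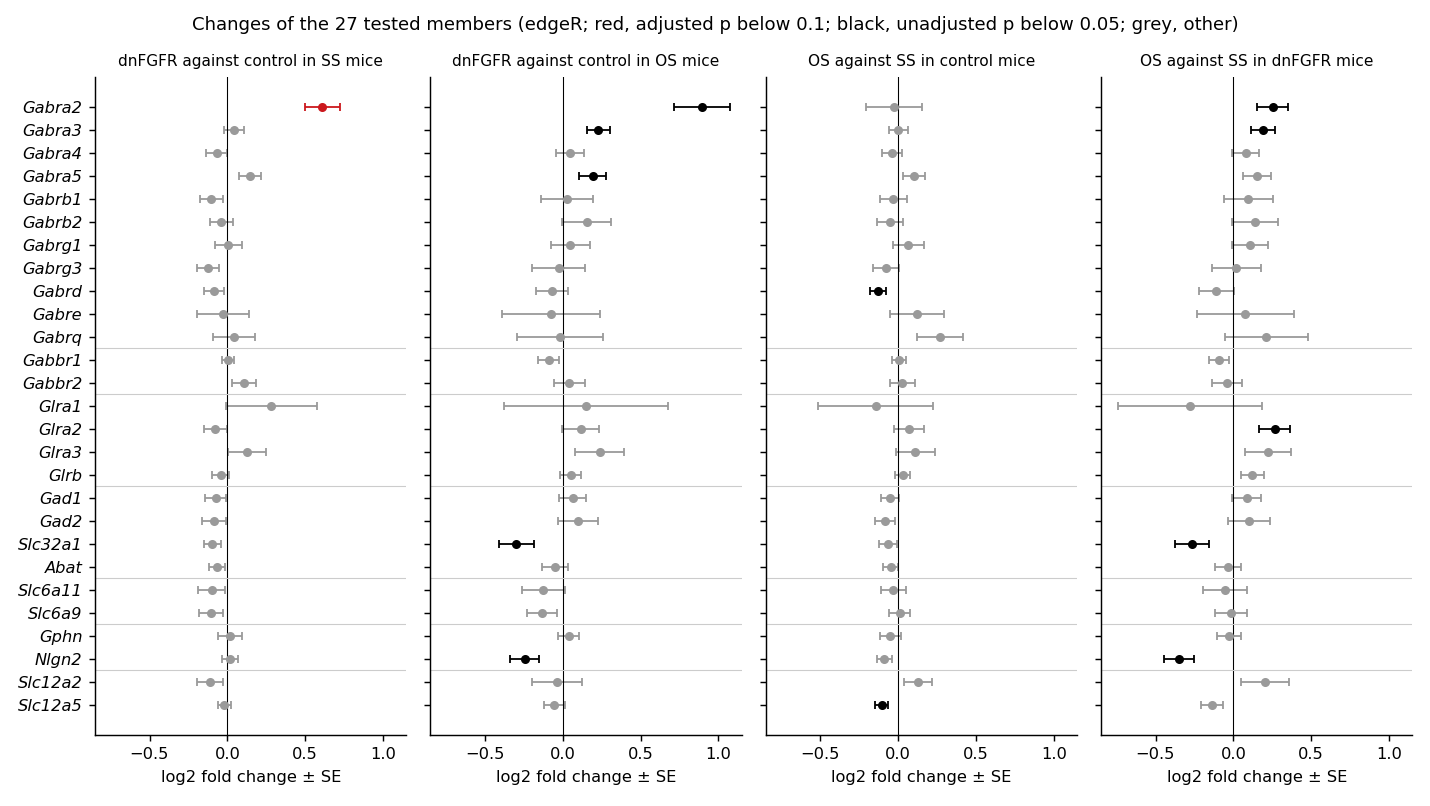
Log2 fold change with its SE for the 27 tested members in 4 comparisons (edgeR), grouped by role with grey lines between roles. The red point, Gabra2 between genotypes under SS housing, is the single call at an adjusted p below 0.1, and its black point under OS housing lies farther out at 0.89 with a wider error.

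Over the whole list, fold changes between genotypes lay on both sides of 0. In SS-housed mice, 11 members had a positive and 16 a negative log2 fold change, with a median of -0.039 where that of all genes was 0.0042. With OS housing it was 15 and 12, with a median of 0.037 where that of all genes was 1.3e-04. This balance moved when 1 mouse was left out, to 13 and 14 (median -0.00094) without dnFGFR OS replicate 5 and 20 and 7 (median 0.093) without replicate 2. With the offset for GC content and length it was 14 and 13, with a median of 0.0023. Both GABA-B subunits stayed within 0.11 of 0 on the log2 scale in these comparisons. Of the glycine receptor subunits, 4 of 4 were positive under OS housing, from 0.051 to 0.24, and none had an unadjusted p below 0.05.

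Among dnFGFR mice, OS housing gave no call in the list. By edgeR, 0 of 27 members passed, as did 0 of all 16944 genes (0.0%), and 5 members had an unadjusted p below 0.05 (6.72% of all genes). DESeq2 and limma voom on the same 10 mice also called 0 members. None had groups that did not overlap (1.42% of all genes). The member with the smallest p was Nlgn2 (chromosome 11, 69823123 to 69837784), which encodes neuroligin 2, an adhesion protein that helps to build inhibitory synapses. Nlgn2 had 340.3, 352, 337, 329 and 359 CPM in SS-housed and 254, 274, 259, 338 and 224 CPM in OS-housed dnFGFR mice. Replicate 4 of the OS-housed mice lay within the range of SS-housed mice and the other 4 below it. The log2 fold change was -0.35 (SE 0.0964, adjusted p = 0.726, edgeR). When DESeq2 was given all 4 groups in 1 object, Nlgn2 was the member called, with -0.34 and an adjusted p of 0.00861 over 20 mice (1.24% of 22182 genes called). Over the 19 mice without dnFGFR OS replicate 5 it was called with -0.29 and an adjusted p of 0.0376 (0.325% of 22165 genes called). With the offset for GC content and length in edgeR, the log2 fold change of Nlgn2 was -0.15 (adjusted p = 0.950). Restricted to dates on which mice of either housing were sacrificed, with 2 SS- and 4 OS-housed mice, it was -0.50 with date as a block (adjusted p = 1.00, edgeR).

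Slc32a1, the vesicular carrier, was the other member with a negative value at an unadjusted p below 0.05. It had 323, 339.7, 329, 316 and 349.9 CPM with SS and 297, 302, 257, 323 and 201 CPM with OS housing, which is -0.26 on the log2 scale (SE 0.110, adjusted p = 0.726 in edgeR). The lowest value was that of replicate 5, and without this mouse the log2 fold change was -0.17. With the offset for GC content and length it was -0.053. Slc32a1 overlaps a counted gene on the annotation, so reads can be shared.

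A further 3 members had positive values with an unadjusted p below 0.05. Gabra3 had 116, 105, 96.7, 119.95 and 101 CPM with SS and 113, 121, 132, 119 and 129.7 CPM with OS housing, a log2 fold change of 0.19 (SE 0.0769, edgeR). Glra2, the alpha subunit of glycine receptors in the developing brain, had 28.7, 25.3, 24.1, 27.4 and 24.9 CPM with SS and 37.5, 28.8, 33.00, 31.4 and 25.99 CPM with OS housing, a log2 fold change of 0.26 (SE 0.10, edgeR). In each gene the OS-housed mice overlapped the SS-housed ones. Gabra2 had 0.25 (SE 0.10) from the values above, with means of 195 ± 18.6 and 233 ± 32.01 CPM (SD, n = 5 each). Each of these 3 had an adjusted p of 0.726 (edgeR). Without dnFGFR OS replicate 5, the log2 fold changes were 0.17 for Gabra3, 0.32 for Glra2 and 0.18 for Gabra2, and with the offset for GC content and length 0.11, 0.18 and 0.16.

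**Figure D4:**
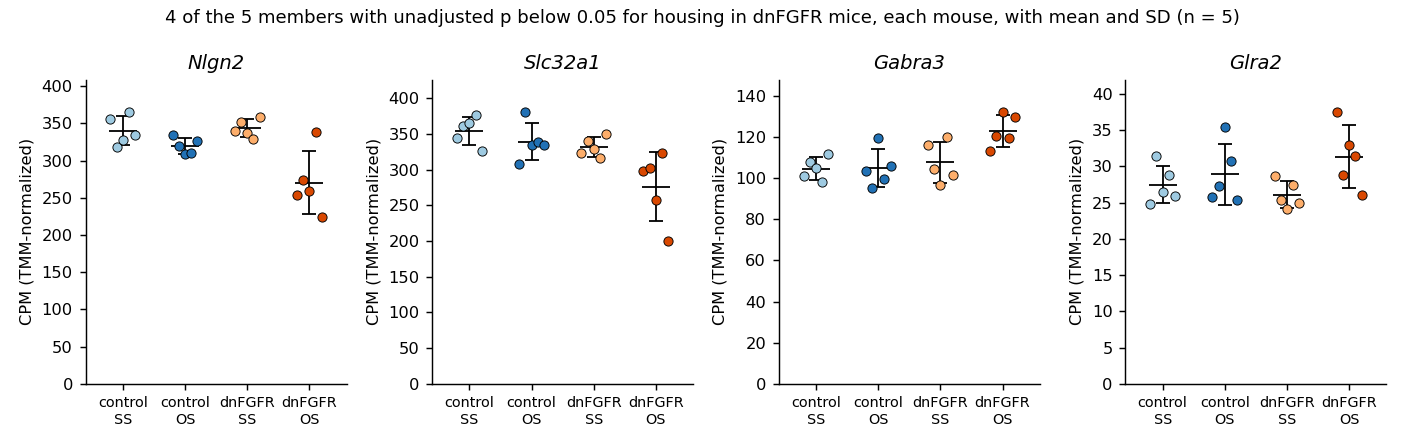
CPM of Nlgn2, Slc32a1, Gabra3 and Glra2 in each of the 20 mice, with the mean and SD of 5 mice per group. In dnFGFR OS mice, 4 of 5 Nlgn2 values lie from 224 to 274 CPM, below every value of the other groups, and 1 at 338 CPM lies among them.

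Single mice stood out among the OS-housed dnFGFR mice. dnFGFR OS replicate 2 had the lowest value of all 20 mice in 12 of 27 members, and replicate 5 the highest in 9 and the lowest in 4. In no other mouse did more than 5 members lie lowest or more than 3 highest. The median over members of the absolute deviation from the median of the 20 mice was 0.34 (log2) in replicate 2 and 0.27 in replicate 5, and at most 0.16 in the other 18 mice. Gad2 shows this spread, with 854, 556, 698, 664 and 922 CPM, where replicate 2 is the lowest and replicate 5 the highest. Gabrb2 behaved likewise, with 351, 241, 348, 358 and 470.3 CPM. In Gabrq and Gabre, subunits known from hypothalamic and brainstem neurons, replicate 2 had 7.58 and 1.55 CPM, and the other 4 mice of its group 20.6 to 29.4 and 4.67 to 7.35 CPM.

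Fold changes with housing in dnFGFR mice followed the GC content of the members' exons. Of 16 members with at most 50% GC, 15 had a positive log2 fold change, with a median of 0.13, and of 11 members above 50%, 10 had a negative one, with a median of -0.090. Across the 27 members, Pearson's r with GC content was -0.82 and Spearman's rho -0.80. These genes share the same 10 libraries and are not independent replicates. All genes showed the trend too, with r = -0.40 and rho = -0.48 over 16557 genes, of which 70.5% at or below 50% GC were positive and 68.9% above it negative. Without dnFGFR OS replicate 5, r over the members was -0.66 and their median log2 fold change went from 0.079 to 0.0073. Without replicate 2 these were -0.78 and 0.12. With the offset for GC content and length the median was 0.030. Between genotypes, of which the OS comparison shares these dnFGFR OS mice, r over the members was -0.62 with OS and -0.20 with SS housing (-0.71 and -0.00050 without Gabra2), where all genes had -0.23 and 0.060. For housing in control mice, r was -0.36 over the members and -0.066 over all genes. What part GC content or these mice have in the differences was not tested.

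**Figure D5:**
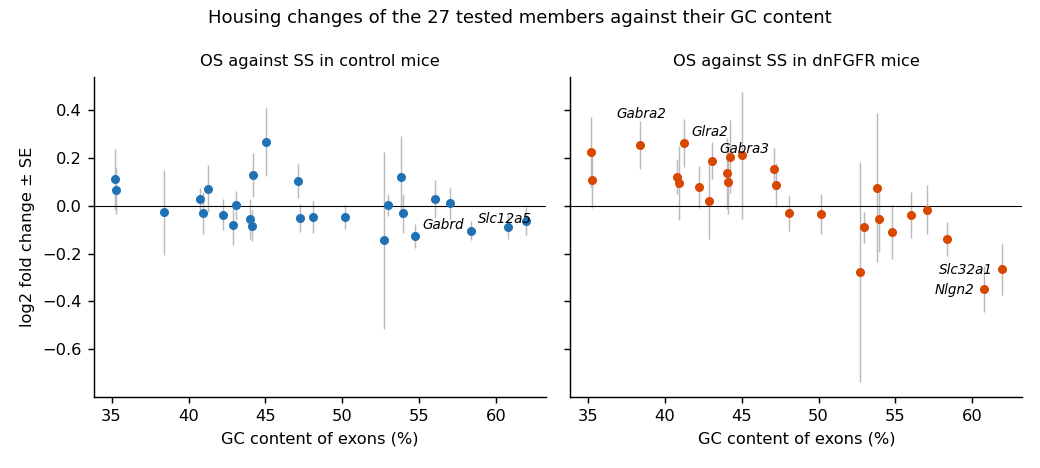
Log2 fold change between OS and SS housing, with its SE, against the GC content of the exons for 27 members, in control mice (left) and dnFGFR mice (right). On the right, 15 of 16 members at or below 50% GC lie above 0 and 10 of 11 above 50% lie below 0. On the left the points stay closer to 0, apart from weakly expressed members with a wide SE.

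Among control mice, housing gave no call either. By edgeR, 0 of 27 members passed, where 21 of 17004 genes did (0.124%), and DESeq2 and limma voom called 0 members as well. In 2 members there was an unadjusted p below 0.05 (7.2% of all genes). Slc12a5, whose product KCC2 keeps chloride low in neurons, had 686, 647, 654, 663 and 663 CPM with SS and 619.9, 624, 604, 604 and 630.5 CPM with OS housing. Every OS-housed control mouse lay below every SS-housed one, as in 1 of 27 members and 1.63% of all genes. The log2 fold change was -0.10 (SE 0.0413, adjusted p = 0.595, edgeR), a fold of 0.931. With the offset for GC content and length it was -0.061. Restricted to dates shared by both housings, with 2 SS- and 5 OS-housed control mice and date as a block, it was -0.078 (edgeR). Gabrd, the delta subunit of tonic GABA-A receptors, had 96.3, 90.5, 98.5, 93.5 and 94.9 CPM with SS and 78.7, 90.8, 85.1, 86.8 and 92.8 CPM with OS housing, and the groups overlapped. Its log2 fold change was -0.13 (SE 0.0514, adjusted p = 0.5996, edgeR), and Gabrd overlaps another counted gene. dnFGFR mice had 81.6, 91.2, 78.02, 94.3 and 101 CPM of Gabrd with SS and 79.00, 102, 62.9, 83.8 and 86.5 CPM with OS housing. In dnFGFR mice the log2 fold changes for the same comparison were -0.14 for Slc12a5 and -0.11 for Gabrd. For Gabra2, housing in control mice gave -0.027 (SE 0.178, adjusted p = 0.989, edgeR).

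The housing by genotype interaction asks whether OS housing acted differently in dnFGFR than in control mice. By edgeR, 0 of 27 members passed, as did 0 of all 17445 genes (0.0%), and DESeq2 and limma voom called 0 members. For 1 member, Nlgn2, there was an unadjusted p below 0.05 (3.41% of all genes), with an interaction of -0.26 on the log2 scale (SE 0.109, adjusted p = 0.963, edgeR). No member had such a p without dnFGFR OS replicate 5 or 3, without control SS replicate 2, or with the offset for GC content and length. Without dnFGFR OS replicate 1, the only such p belonged to a member with a positive value, and so not to Nlgn2. The interaction of Nlgn2 was -0.19 without dnFGFR OS replicate 5 and -0.11 with the offset. Control mice had 356, 318, 327, 365 and 335 CPM of Nlgn2 with SS and 335, 319, 309, 311 and 326 CPM with OS housing. Next by p came Gabra3 with 0.19 (SE 0.0981) and Slc32a1 with -0.20 (SE 0.129). Without dnFGFR OS replicate 5 these were 0.17 and -0.099, and with the offset 0.14 and -0.0059. For Slc32a1, control mice had 344, 360.4, 365, 376 and 326 CPM with SS and 307, 380.1, 334, 339 and 334 CPM with OS housing.

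Gad1 and Gad2 together set how much GABA can be made, with GAD67 spread through the cell and GAD65 at nerve endings. Gad1 had 784, 762, 809.8, 721 and 722 CPM in control SS and 675, 776, 812, 714 and 688 CPM in control OS mice. In dnFGFR mice it had 793, 693, 621, 804 and 695 CPM with SS and 775, 694, 745, 724 and 890.1 CPM with OS housing. All 4 groups overlapped. Gad2 had 739, 726, 771, 716 and 702 CPM in control SS, 688, 658, 809, 674 and 621 in control OS and 790.1, 701, 552, 752 and 651 in dnFGFR SS mice. Abat, which encodes GABA transaminase and breaks GABA down in mitochondria, was the lowest of this group per length, with 70.4 ± 4.55 CPM per kb. It had 556, 561, 590.2, 589 and 532 CPM in control SS, 547, 569.6, 571, 538 and 512 in control OS, 563, 568, 515, 531 and 525 in dnFGFR SS and 579.6, 434, 549, 521 and 556 in dnFGFR OS mice. The log2 fold changes of the 3 enzymes ran from -0.085 to 0.10 over the 4 comparisons, and none had an unadjusted p below 0.05.

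GABA-B receptors need both subunits, of which Gabbr1 binds GABA and Gabbr2 couples to the G protein. Gabbr1 had 759.6, 742, 725, 765 and 745 CPM in control SS and 764, 765, 787, 730.2 and 701 CPM in control OS mice. In dnFGFR mice it had 752, 761, 747, 741 and 747 CPM with SS and 707, 697, 668, 779.9 and 668 CPM with OS housing. The largest of its 4 log2 fold changes in size was -0.090, with housing in dnFGFR mice. Gabbr2 had 202, 163, 172, 156 and 201 CPM in control SS, 191, 161, 191, 169 and 199 in control OS, 193, 171, 198, 214 and 186 in dnFGFR SS and 157, 163, 209, 207 and 199.99 in dnFGFR OS mice. Its largest was 0.11, between genotypes under SS housing.

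For the GABA-A subunits at the ends of the range, Gabrb2 had 329, 332, 329.7, 320.5 and 341 CPM in control SS, 330.2, 274, 399, 307 and 281 in control OS and 359.9, 333, 260.3, 358 and 298 in dnFGFR SS mice. Gabre had 3.88, 6.10, 4.56, 4.94 and 4.89 CPM in control SS, 3.81, 5.33, 5.76, 7.22 and 4.40 in control OS, 5.19, 3.71, 5.58, 3.54 and 5.88 in dnFGFR SS and 5.72, 1.55, 7.35, 5.91 and 4.67 in dnFGFR OS mice, from 57 to 248 counts per mouse. Neither had an unadjusted p below 0.05 in any comparison. Of the 11 subunits of this class, 10 had a positive log2 fold change with OS housing in dnFGFR mice (median 0.11), and 5 had one in control mice (median -0.027). Without dnFGFR OS replicate 5 the count was 8 (median 0.084), with Gabrb1 and Gabrg3 below 0 beside Gabrd, and with the offset for GC content and length it was 7 (median 0.062). Of all genes at or below 50% GC, 70.5% were positive in that comparison, and 9 of the 11 subunits lie there.

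Glycine receptors were represented by Glrb, with 227, 218, 207, 201 and 218 CPM in control SS, 228, 217, 230.2, 205 and 214 in control OS, 204, 216, 185, 214 and 221 in dnFGFR SS and 219, 215, 224, 219 and 255 in dnFGFR OS mice. Glra1, the alpha subunit of the adult spinal cord and brainstem, had only 10 to 82 counts per mouse. It had 0.842, 0.824, 1.47, 1.47 and 1.38 CPM in control SS, 1.75, 0.856, 1.79, 0.609 and 0.426 in control OS, 1.83, 2.22, 0.849, 1.49 and 0.923 in dnFGFR SS and 1.20, 0.273, 1.99, 1.96 and 0.611 in dnFGFR OS mice. Its log2 fold changes had SEs of 0.295 to 0.525, so even a change larger than these could be missed at this depth. Control mice had 24.9, 31.4, 26.4, 28.8 and 25.97 CPM of Glra2 with SS and 25.8, 27.3, 35.5, 30.7 and 25.3 CPM with OS housing. Glra3 had log2 fold changes from 0.11 to 0.24, none with an unadjusted p below 0.05.

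Among transporters of the plasma membrane, Slc6a11 was the highest per length, with 61.6 ± 8.22 CPM per kb. It encodes GAT3, which takes GABA up into astrocytes. Slc6a11 had 281, 332, 336, 389.8 and 296 CPM in control SS, 315, 316, 362, 309.8 and 297 in control OS, 309, 318, 325, 256 and 314 in dnFGFR SS and 316, 192, 349, 339.99 and 269 in dnFGFR OS mice. Its lowest values belonged to dnFGFR OS replicate 2 and dnFGFR SS replicate 4, and its log2 fold changes ran from -0.12 to -0.031. Slc6a9, the glycine transporter GlyT1 of glia, had -0.11 and -0.13 between genotypes and within 0.017 of 0 with housing. For Slc6a5, the counts of the 6 mice above 0 were 1 to 7.

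Gephyrin (Gphn) is the scaffold beneath GABA-A and glycine receptors. Gphn had 89.7, 78.5, 77.7, 65.6 and 76.8 CPM in control SS, 76.4, 74.2, 78.3, 75.2 and 71.1 in control OS, 80.6, 72.3, 71.7, 88.5 and 79.7 in dnFGFR SS and 79.97, 71.8, 71.8, 79.3 and 81.9 in dnFGFR OS mice, with log2 fold changes from -0.049 to 0.037. The ratio of Nlgn2 to Gphn within each mouse, which does not depend on library scaling, had a geometric mean of 4.38 in dnFGFR SS and 3.48 in dnFGFR OS mice. On the log2 scale the difference was -0.33 (p = 0.0397 by a two-sided exact permutation test, 0.317 after adjustment over 16 tests, n = 5 each). Against control OS mice, with a geometric mean of 4.26, the difference was -0.29 (exact permutation p = 0.0238, adjusted p = 0.317). Without dnFGFR OS replicate 5 these differences were -0.24 and -0.21. Nlgn2 has 60.7% GC in its exons and Gphn 48.1%. Housing changes in dnFGFR mice followed GC content, and its part in this ratio was not tested. The smallest p that 5 against 5 mice allow is 0.00794. In the log2 ratio, dnFGFR OS mice ran from 1.45 to 2.09 and control OS mice from 1.98 to 2.20, so the groups overlapped.

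Chloride balance rests on Slc12a5, which exports chloride, and Slc12a2 (NKCC1), which imports it. Slc12a2 had 115, 143, 120.4, 139 and 132 CPM in control SS, 159, 143, 155, 145 and 109 in control OS, 118, 122, 138, 98.9 and 123 in dnFGFR SS and 141, 86.8, 165, 130.02 and 169 in dnFGFR OS mice. The choroid plexus, an epithelium that is also rich in NKCC1, had 4 markers whose summed CPM ran from 7.36 to 2092 between mice, and their part in these values was not tested. Slc12a5 in dnFGFR mice had 654, 666, 636, 645 and 666 CPM with SS and 588, 616, 575, 655 and 533 CPM with OS housing, and 1 OS-housed mouse lay within the SS range. The geometric mean of the CPM ratio of Slc12a5 to Slc12a2 was 5.12 in control SS, 4.37 in control OS, 5.47 in dnFGFR SS and 4.39 in dnFGFR OS mice. OS housing gave a log2 difference in this ratio of -0.23 in control mice (exact permutation p = 0.111, adjusted p = 0.593) and of -0.32 in dnFGFR mice (exact permutation p = 0.183, adjusted p = 0.730). Neither passed, and in dnFGFR mice the difference was -0.20 without OS replicate 5 and -0.49 without OS replicate 2. Slc12a5 has 58.3% GC in its exons and Slc12a2 44.2%, and the part of GC content in this ratio was not tested. The ratio of Gad1 to Gad2 lay between 1.04 and 1.06 and that of Gabbr1 to Gabbr2 between 3.78 and 4.20 in the 4 groups, and their 8 adjusted p were at least 0.816 (exact permutation tests).

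A further 47 genes that work with these proteins were listed by function: auxiliary subunits and assembly factors of the receptors, enzymes and carriers of glutamate, GABA and glycine, other cation-chloride cotransporters with their kinases, and the potassium channels that GABA-B receptors open. All 47 were tested, and edgeR called 0 in each of the 5 comparisons, as did limma voom. DESeq2 called 5 with housing in control mice (0.726% of all genes), which were Slc6a13, Stk39, Glul, Slitrk3 and Slc38a5, and 0 in the other 4 comparisons. At an unadjusted p below 0.05 there were 4 higher and 3 lower with OS housing in control mice (7.2% of all genes), and 0 and 2 in dnFGFR mice (6.72%). Between genotypes there were 3 higher and 2 lower in dnFGFR mice under either housing (8.63% of all genes with SS and 7.02% with OS housing). Slc6a13, which encodes the GABA transporter GAT2 of the meninges and liver, had 6.48 ± 1.06 CPM in control SS and 3.96 ± 0.519 CPM in control OS mice (SD, n = 5 each). Its log2 fold change of -0.71 (SE 0.140) had an adjusted p of 0.102 (edgeR), just outside the threshold. Stk39, a kinase that acts on NKCC1 and KCC2, had 72.8 ± 1.06 and 83.5 ± 5.82 CPM in the same groups, or 0.20 on the log2 scale (SE 0.0529, adjusted p = 0.281 in edgeR). With OS housing in dnFGFR mice, the smallest p in each direction were those of Gldc, of glycine breakdown, with 0.16 (SE 0.0838), and Wnk2, a chloride-sensing kinase, with -0.19 (SE 0.0708). Between genotypes, the positive value with the smallest p of the 47 was that of Kcnj9 under SS and of Kcnj3 under OS housing. Both encode subunits of the channels that GABA-B receptors open, and each was picked by its p in that comparison. Their values under the other housing are not given here. Kcnj9 had 67.3 ± 8.89 CPM in control SS and 80.3 ± 7.42 CPM in dnFGFR SS mice, with 0.26 (SE 0.0867, adjusted p = 0.385, edgeR). Kcnj3 had 54.6 ± 6.48 and 70.9 ± 9.17 CPM in OS-housed mice, with 0.38 (SE 0.109, adjusted p = 0.576, edgeR). In the other direction, the kinase gene Oxsr1 had -0.21 (SE 0.0597) under SS and the glutamine transporter gene Slc38a3 -0.18 (SE 0.0619) under OS housing. For the interaction they were Dld with 0.15 (SE 0.0793) and Gls2 with -0.27 (SE 0.110).

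Markers of other cells were read beside the members. Of 7 markers of striatal projection neurons, 7 had a negative log2 fold change between genotypes under either housing, and 5 an unadjusted p below 0.05, with 0 called by edgeR or limma voom and 1, Rgs9, by DESeq2 under SS housing. Between OS and SS housing all 7 were negative as well, with a median of -0.21 in dnFGFR mice (2 with an unadjusted p below 0.05) and of -0.086 in control mice (3, with Rgs9 called by DESeq2). Their summed CPM ran from 3238 to 4084 in control SS, 3110 to 3634 in control OS, 2952 to 3603 in dnFGFR SS and 2046 to 2889 in dnFGFR OS mice. For the 2 glutamatergic markers it ran from 163 to 433, 209 to 472, 321 to 596 and 263 to 614 in the same order. That of 3 cortical markers ran from 34.0 to 113, 51.1 to 116, 73.9 to 159 and 69.8 to 151. Markers of neurons in general, 5 genes, summed to means of 3539 ± 313, 3602 ± 157, 3869 ± 291 and 3955 ± 264 CPM. Between genotypes, the median log2 fold change of the cortical markers was 0.46 under SS and 0.58 under OS housing. All 3 were positive, and 1 had an unadjusted p below 0.05 under either housing (edgeR). For the 2 glutamatergic markers the median was 0.32 and 0.33, and edgeR called 0 in either list. The striatal medians were -0.19 and -0.28. Markers of non-neuronal cells were read in the comparison of genotypes, at an unadjusted p below 0.05 (8.63% of all genes under SS and 7.02% under OS housing). Under SS housing, 3 of 3 endothelial (median log2 fold change -0.23), 2 of 4 oligodendrocyte (-0.18) and 2 of 3 microglial markers (-0.16) were lower in dnFGFR mice. Of 4 astrocyte markers (-0.0034), 0 were lower and 1 was higher. Under OS housing, 1 endothelial (-0.049), 1 oligodendrocyte (-0.12) and 0 microglial markers (0.039) were lower. Again 1 astrocyte marker (0.14) was higher. In these lists edgeR called 0 markers under either housing. None of these markers was at 0 in any group, and the part of these lists in the members' values was not tested beyond the correlations that follow. With group means removed, none of 27 members passed an adjusted p of 0.1 for correlation with the mean log2 level of the striatal markers over 20 mice (permutation within groups, 27 tests). For Gabra2, r was 0.067 and rho 0.072 (permutation p = 0.747 and 0.766, adjusted p = 0.925 and 0.899), and r was -0.11 without the 2 mice farthest from the median. Gabrd, a subunit known from striatal neurons, had the highest r, 0.697, with rho = 0.511 (permutation p = 0.0149 and 0.0364, adjusted p = 0.404 and 0.490), and r fell to 0.225 without these 2 mice.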

How the data were processed

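Total RNA of the POA was sequenced in paired ends from NEBNext Ultra libraries. Reads were aligned for the authors with HISAT2 to GRCm38, and the authors deposited raw counts per RefSeq gene made with Rsubread (2.0.1 in the study's methods); the submitters' processing notes name DESeq2 1.36.0. How reads on either strand or in several genes were counted is not given in the sources used here. The count table holds 25239 genes, and 20 further columns of counts matched no sample of this series and were not used. Groups came from the labels. Each sample was 1 mouse, with 5 per group.

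Counts were tested in R 4.3.3 with edgeR 4.0.16 (quasi-likelihood, TMM factors, filterByExpr), each comparison on its own 10 mice and the interaction on 20, with Benjamini-Hochberg adjustment over all genes tested and a threshold of 0.1. SEs were taken from the fitted log2 fold changes and their F statistics. CPM were scaled over 20 mice. Level per length used exon lengths of GENCODE vM21. Ratios were tested by exact permutation over mice (252 assignments, 16 tests) and correlations with 100000 permutations within groups. The alternatives were DESeq2 1.42.0, limma 3.58.1 (voom with quality weights), RLE factors, a minimum of 10 counts in every mouse or no filter, a threshold of 0.05, all 4 groups in 1 fit, the replicate number as a block, an offset for GC content and length, shared sacrifice dates with a date block, and each mouse left out. A DESeq2 fit of 19 mice was added after seeing the data. The calculation was tested on simulated data.

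Members and lists were chosen with earlier results of these data known. Every member is accounted for, and values per mouse are given for members called, with an unadjusted p below 0.05 or without overlap in a comparison, for the highest and lowest per length of each role and for the genes of the ratios. Same-numbered mice of both groups correlated from -0.235 to 0.259 in their deviations, with at most 2 of 5 pairs above 0.1, so that the numbers were not taken to pair mice. Counts of replicates differed by more than sampling noise in every group. At these depths counting error is small for all members but Glra1, Gabre and Slc6a5.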

Additional observations from a re-analysis of the deposited data

Results flagged for a closer look

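In 7 of 108 combinations of member and group, 1 mouse stood apart from the other 4 by Dixon's test, which chance gives in about 1 of 20. Control OS replicate 3 had 3 of these, with 72.5 CPM of Gabrg1 (others 53.5 to 58.9), 30.3 CPM of Gabrq (others 17.9 to 21.3) and 362 CPM of Slc6a11 (others 297 to 316). In dnFGFR SS replicate 4, Gabrq was at 14.2 CPM (others 19.3 to 21.0) and Slc6a11 at 256 CPM (others 309 to 325). dnFGFR OS replicate 2 had 11.2 CPM of Glra3, the alpha3 subunit of the glycine receptor, with the other 4 mice at 18.2 to 18.9. dnFGFR OS replicate 5 had 255 CPM of Glrb, with the others at 215 to 224.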

How the results depend on the processing

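The number of members called with OS housing in dnFGFR mice went from 0 to 1 (Nlgn2) in DESeq2 with 4 groups in 1 object, over 20 and over 19 mice. Between genotypes under SS housing it went from 1 to 0 at a threshold of 0.05, with all 4 groups in 1 edgeR fit and in DESeq2 over 19 mice (adjusted p of Gabra2 = 0.137), and ranged from 0 to 1 when single mice were left out. Under OS housing it went from 0 to 1 (Gabra2) with DESeq2, limma voom, the offset for GC content and length, all 4 groups in 1 edgeR fit, and DESeq2 in 1 object over 20 and 19 mice, and ranged from 0 to 1 when mice were left out. Correlations with striatal markers that passed went from 0 to 2 with the GC offset, Gabra4 (r = 0.77, adjusted p = 0.0235) and Gabrd (r = 0.79, adjusted p = 0.0641). The cause of these changes was not tested. No result changed direction past a threshold. With the replicate block, 0, 0, 1, 0 and 0 members were called, as without it, while genes called between genotypes under OS housing went from 9 to 3. Counts over all genes also moved with the tool: DESeq2 called 157 genes against 21 by edgeR with housing in control mice, 5 against 0 in dnFGFR mice, 223 against 34 between genotypes under SS and 78 against 9 under OS housing.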
